A study of Arabidopsis thaliana with 22 samples.

Results

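Of 10482 Affymetrix ATH1 probe sets with a mean intensity of at least 50, 50 had their highest point where the sampled day began and ended, at 0 and 24 h, and are described here. The rule read log2(value + 4) within each replicate series, with 0 h and 24 h averaged into 1 point. A probe set was a member if that point was the highest of the series and if the highest and lowest points lay at least 1.5 log2 units apart, both in series 1 and in series 2. The daily levels therefore chose the members and are given as a description without a test. Leaves of Arabidopsis thaliana Col-0, the usual reference accession, were sampled at growth stage 3.90 from plants kept at 20 °C in compost under 12 h of light and 12 h of dark. The 11 time points (0, 1, 2, 4, 8, 12, 13, 14, 16, 20 and 24 h) had 2 biological replicates each, with 20 plants pooled per replicate, giving 22 arrays. No mutant or treated group was used here, and the labels do not state whether the replicates were grown separately, so p-values measure the spread between these arrays only. Each array measured RNA from whole leaves, and fewer cells of a type and less RNA per cell cannot be told apart.

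Plants store part of the carbon fixed by day as starch in the chloroplast and break it down at night, and a circadian clock sets many transcripts to a preferred time of day. Starch breakdown begins with phosphate groups added to the granule by the glucan water dikinases, which open its surface to amylases. Daily cycles of transcript level are also known for genes of protein turnover, membrane transport and the cell cycle. Whether 0 h fell at lights on or at lights off is not worded in the labels. The titles of the series 1 arrays hold numbers that run like hours of the clock. These are 21 at 0 h, 1 at 4 h, 13 at 16 h, 17 at 20 h and 21 at 24 h. GI, a clock gene known for its evening peak, measured 711.7 at 20 h in series 1 and 601.7 in series 2, its highest arrays. At 8 h it stood at 2.1 and 15.2.

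The arrays had the same trimmed mean of 100, and their medians ran from 37.6 to 44.7. RNA quality differed between the series: the ratio of the 3' to the 5' actin control signal ran from 2.72 to 5.94 (median 3.80) in series 1 and from 3.67 to 10.2 (median 5.54) in series 2. The 3 highest ratios were those of series 2 at 1 h (10.2), 24 h (9.72) and 4 h (8.64). Of the leaf, root, flower and guard cell markers, 3 could be looked up by name. RCA, which activates Rubisco in leaves, had a mean intensity of 3689, the root gene PYK10 one of 13.2 and the guard cell gene FAMA one of 51.0. The age tag gives another hour than the source name for the 8 h arrays (5 h) and for the 16 h arrays (14 h). With the tag's hours the rule found 49 members, 46 of them the same.

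Against the averaged 0 and 24 h point, most members stood lowest between 12 and 16 h and were most of the way back at 20 h. That every member lay below this point at 1 h is set by the rule. From 0 h alone, not every member fell by 1 h in both series. AT2G36145 went from 324.2 to 368.5 in series 1 and from 431.8 to 370.3 in series 2. The members' median difference from the 0 and 24 h point was -0.42 at 1 h, -0.73 at 4 h and -1.02 at 8 h, in log2 units. The difference was -1.77 at 12 h, -1.84 at 13 h and -1.72 at 14 h, which made up the low part of the day. By 16 h it was -1.40 and by 20 h -0.41. The time points are unevenly spaced. From 8 to 12 h 48 of the 50 fell in both series (median step -0.86), and from 16 to 20 h 41 rose in both (median step 1.04). A decline at every step from the 0 and 24 h point to 12 h was seen for 20 members.

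**Figure D1:**
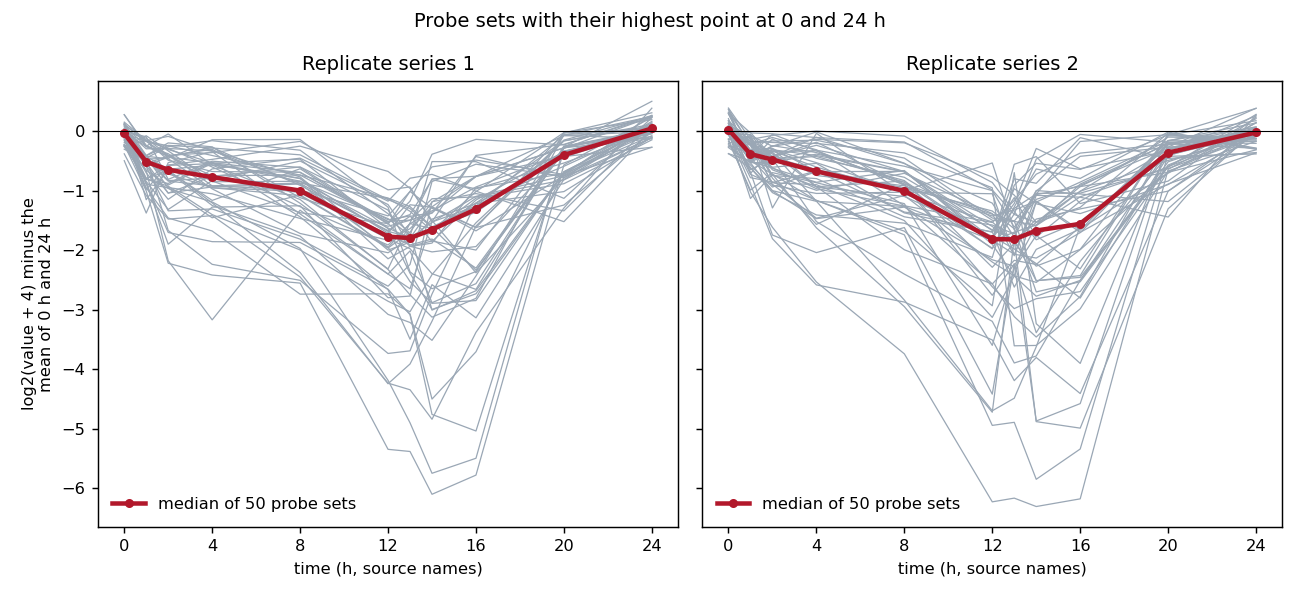
Each grey line is 1 of the 50 probe sets and the red line their median, as log2(value + 4) minus the mean of 0 h and 24 h, by hour and replicate series. In both series the median is lowest at 12 and 13 h and is back near the starting level at 20 h.

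On the intensity scale, 40 members kept a trough mean above 29.2, the highest value of 27 bacterial control probe sets, for which no leaf RNA exists. In these 40 the mean of the 4 arrays at 0 and 24 h was 2.55 to 24.5 times the mean of the lowest hour, with a median of 4.04. The other 10 fell to or below that level, so no fold is given for them. The range within a series was 1.52 to 6.10 log2 units (median 2.1) in series 1 and 1.51 to 6.31 (median 2.13) in series 2. The upper ends rest on low values under 29.2 and depend on the pseudocount. In 49 members all 4 peak arrays exceeded all 6 arrays of 12 to 14 h, which the choice by peak and range favours. In 9 members the 4 peak arrays exceeded all 18 others, so the neighbouring hours usually overlapped with the peak. Neither count was made over all probe sets, so both only describe the members.

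The lowest hour lay within 12 to 16 h in both series for 48 members and was the same hour in both for 25. It was 12 h in both series for 11 members and 14 h in both for 10. The second highest point was most often 20 h (21 members in series 1 and 18 in series 2) or 1 h (13 and 19). The level at 20 h was above that at 4 h in both series for 27 members and below it for 9, with 14 mixed.

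**Figure D2:**
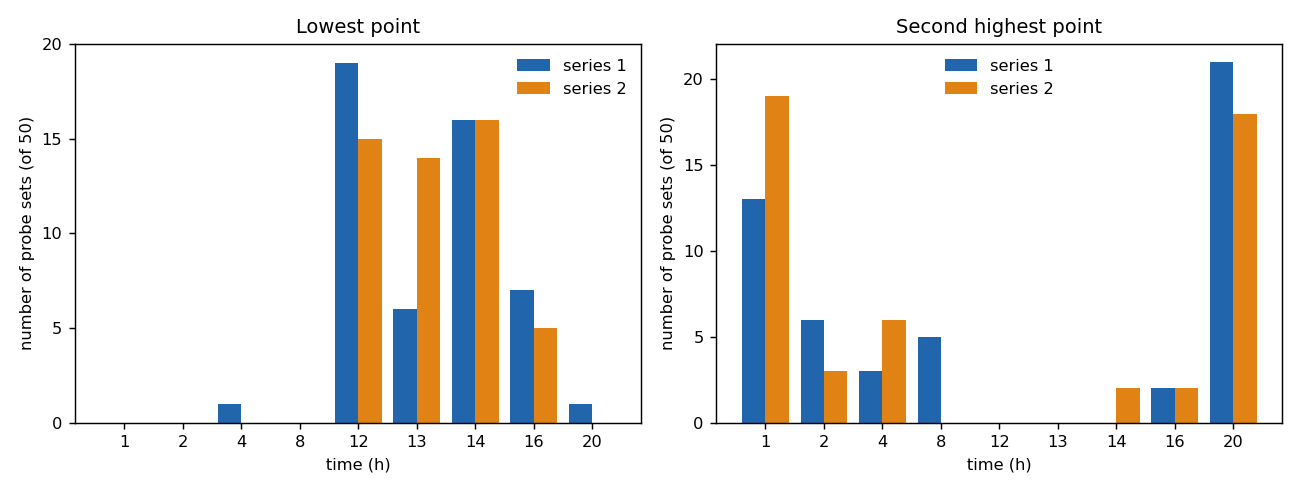
Bars give the number of the 50 probe sets, in each series, whose lowest (left) or second highest (right) point fell at each hour. Lowest points gather at 12 to 16 h, and second highest points at 20 h and 1 h, the hours beside the peak.

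The return to the peak was described in 2 groups, split by the hour of the trough in the mean of both series. Of the 50, 25 had their lowest mean at 12 or 13 h, 24 had it at 14 or 16 h, and 267157_at had it at 20 h. The first group began to rise early, with a median step of 0.51 from 12 to 14 h, and had a median difference from the peak of -0.94 at 16 h. The second group went on falling from 12 to 14 h (median step -0.57), and at 16 h its median difference from the peak was still -2.46. It then rose by a median of 2.14 from 16 to 20 h, against 0.38 in the first group. At 20 h the medians were close, at -0.33 in the second group and -0.42 in the first. These groups were formed from the values they describe and carry no test. Some members had trough hours on different sides of the split in the 2 series.

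Of the 50 members, 20 stand for 1 named gene, 3 for several genes and 27 have no gene name here. PWD (AT5G26570), the phosphoglucan water dikinase, adds phosphate to starch granules already marked by a first dikinase and is needed for normal starch breakdown. Its intensity at 0 h was 743.4 in series 1 and 1011.5 in series 2. It then stood at 605.7 and 885.4 at 1 h, 451.8 and 531.4 at 4 h, 433.9 and 475.2 at 8 h, then 260.9 and 297.5 at 12 h. The decline went on through the hours at which other members were already rising. The lowest arrays were those of 16 h, at 174.9 and 142.8. At 20 h PWD was back at 717.0 and 766.0, and at 24 h at 1038.7 and 1034.5. The peak mean of 957 ± 143 (SD, n = 4 arrays) was 6.02 times the 16 h mean of 159 ± 23 (SD, n = 2), and the peak arrays did not overlap with those of any hour from 4 to 16 h.

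Of the genes of starch breakdown, 24 were listed and 4, PWD included, had a probe set named with 1 gene. PWD was the 1 member among them. DPE1, the chloroplast enzyme that joins and trims short glucans, came close: its highest point was 20 h in series 1 and the 0 and 24 h point in series 2, with ranges of 3.24 and 4.18. Its intensity was 183.5 and 331.7 at 0 h, 21 and 14.2 at 14 h, 233.0 and 286.1 at 20 h, then 293.7 and 321.0 at 24 h. The 14 h values lay below the highest bacterial control, so the ranges of DPE1 depend on the pseudocount. GWD2, a relative of PWD active outside the chloroplast, had ranges of 0.68 and 0.92 only. The 24 listed genes are thus mostly not measured by name, and the pathway as a whole was not assessed.

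Members with roles in the breakdown of proteins and lipids were SCPL49, SCPL35, AT1G01300 and AT5G49900. SCPL49, a serine carboxypeptidase-like protein, measured 873.0 at 0 h in series 1 and 971.9 in series 2, and 816.0 and 887.3 at 24 h. It stayed at 638.4 and 676.3 at 8 h, then dropped to 377.2 and 334.6 at 12 h. The lowest arrays were 163.7 at 16 h in series 1 and 159.3 at 14 h in series 2. At 20 h it measured 663.6 and 613.0. Like PWD, it belonged to the late group, and the peak mean of 887 ± 64 (SD, n = 4) was 5.39 times the 16 h mean of 165 ± 1.3 (SD, n = 2).

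SCPL35, of the same family, was lowest at 14 h, at 112.0 and 112.1, and measured 332.7 and 533.9 at 0 h, then 328.8 and 311.3 at 24 h. At 1 h it measured 303.5 and 369.5, a clear fall from 0 h in series 2. Against the averaged 0 and 24 h point the difference at 1 h was -0.13, the smallest among the named members. The family has 29 probe sets named with 1 gene, of which 11 reached a mean of 50. Of these 11, 3 had their highest point at 0 and 24 h in both series and 4 a range of at least 1.5 in both. Of the 4, SCPL34 was highest at 1 h in series 1 and 2 h in series 2, and SCPL46 at 14 h in both. Among all 10482 probe sets with a mean of at least 50, 304 were highest at 0 and 24 h in both series. The range alone was not counted over all probe sets. The family was chosen after its values were seen, and no test was made. AT1G01300, an aspartyl protease family protein, fell from 270.9 and 411.0 at 0 h to 46.4 and 82.2 at 12 h and had risen to 139.8 and 214.5 by 14 h. It was one of the early group. AT5G49900, annotated as a glucosylceramidase, which removes glucose from a membrane lipid, varied little between the series: 171.5 and 171.6 at 0 h, 54.1 and 53.8 at 16 h, 171.0 and 160.2 at 20 h, then 178.5 and 187.7 at 24 h. At 20 h its difference from the peak was -0.10 on the log2 scale, so most of its return had taken place by then.

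Of the members in the chloroplast, AT5G62720, an HPP-family membrane protein of the chloroplast, held its level for longer in series 1 than in series 2. In series 1 it measured 775.3 at 0 h, 685.9 at 8 h, 309.8 at 12 h and 117.4 at 14 h. In series 2 the same hours gave 510.9, 261.8, 69.3 and 43.4. Both series were lowest at 14 h and back at 626.4 and 371.3 by 20 h.

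Transport proteins were represented by AT1G68600, of the aluminium-activated malate transporter family, which carries organic acids across membranes. In series 1 it fell from 446.1 at 0 h to 97.3 at 4 h and 31.9 at 12 h, and in series 2 from 659.3 to 285.9 and 175.6. Series 1 was the lower at every hour. It was already rising at 14 h (67.7 and 263.3) and reached 504.6 and 971.9 at 24 h. AT4G33700, a membrane protein with a CBS domain, measured 181.7 and 207.8 at 0 h, 145.6 and 127.8 at 8 h, then 22 and 26.5 at 14 h, the latter below the highest bacterial control. At 20 h it was at 122.9 and 141.9 and at 24 h at 228.1 and 202.0.

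Members of regulator families were AT5G53420 and AT1G52770. AT5G53420 holds a CCT motif, found in CONSTANS and in the TOC1 family of clock proteins. It was lowest at 12 h, at 50.7 and 113.8, and at 14 h it was back at 180.9 and 308.3, against 322.9 and 317.2 at 0 h. AT1G52770, of the NPH3 family of phototropic signalling, fell from 95.1 and 204.8 at 0 h to 11.5 and 14.5 at 12 h, both below the highest bacterial control. At 14 h it stood at 43.4 and 67.2, and it gained little until 20 h, at 38.6 and 83.4. Its 20 h difference of -1.12 was the largest among the named members, and 24 h brought 113.6 and 121.7. Both genes shared an early first rise that came to a halt before the peak.

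**Figure D3:**
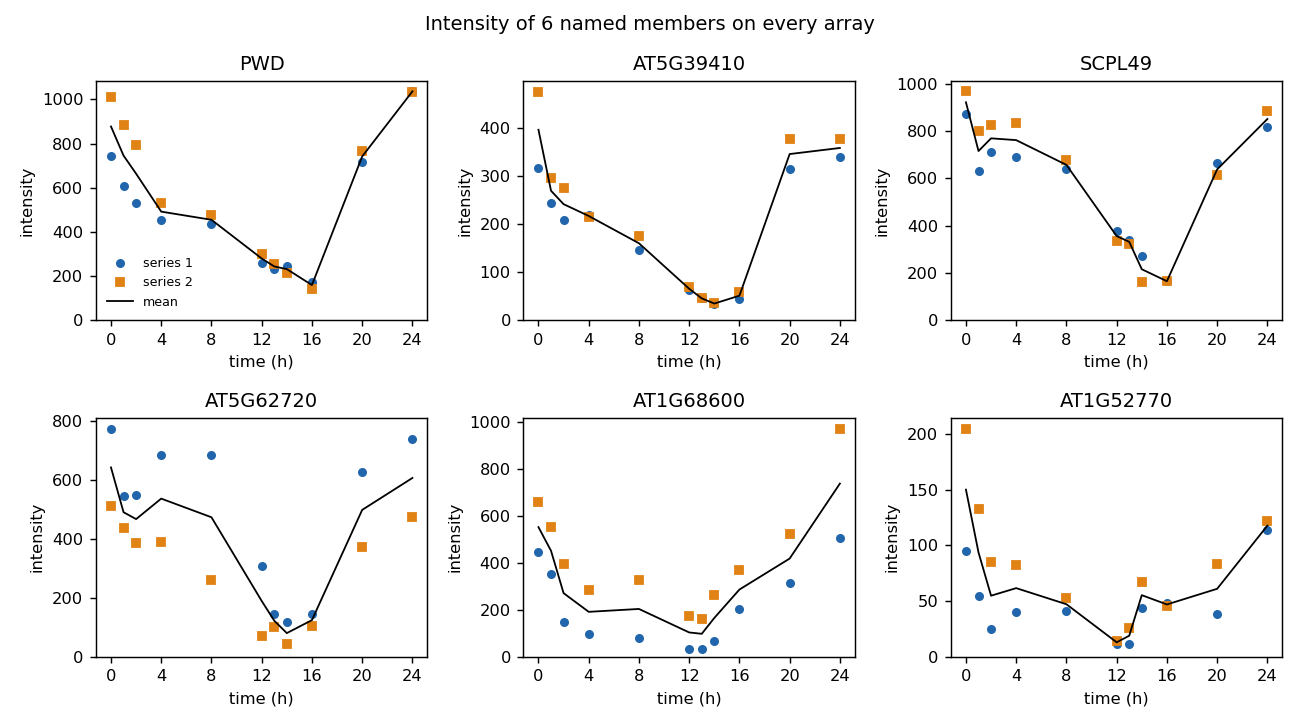
Intensity on the linear scale by hour for 6 named members, with a point for each array, blue circles for series 1, orange squares for series 2 and a line for their mean. PWD, AT5G39410 and SCPL49 are lowest at 14 or 16 h, and AT1G68600 and AT1G52770 at 12 or 13 h with an earlier rise.

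AT5G39410, of the saccharopine dehydrogenase family, had a mean range of 3.29, with its trough above the highest bacterial control. It measured 316.6 and 475.3 at 0 h, 145.5 and 174.2 at 8 h, 62.2 and 68.1 at 12 h, then 34.0 and 34.8 at 14 h. At 16 h it was still at 43.3 and 58.2, and at 20 h at 313.8 and 377.1, near the 339.6 and 376.6 of 24 h. The peak mean was 10.96 times the 14 h mean, and most of the return took place between 16 and 20 h. AT1G16850 is a low transcript, whose trough lay below the highest bacterial control, so no range is given: 84.3 and 74.1 at 0 h, 172.3 and 128.6 at 24 h, with 17.1 and 2.8 at 16 h. At 1 h it measured 44.0 and 67.9, the furthest below the 0 and 24 h point among the named members (a difference of -0.94). That point was raised by the 24 h arrays, and the arrays of 0, 2, 4 and 20 h overlapped.

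AT2G19310, a small heat shock protein of the HSP20 type, was well below its peak at both neighbouring hours, by differences of -0.73 at 1 h and -1.04 at 20 h. It measured 461.4 and 287.9 at 0 h, then 456.2 and 398.1 at 24 h, but 244.9 and 226.7 at 1 h, then 191.4 and 187.2 at 20 h. Its lowest arrays were those of 12 h, at 125.7 and 90.7. AT1G71695, a class III peroxidase, differed from it at the end of the day, with 504.7 and 363.1 at 20 h against 587.5 and 301.8 at 24 h, a difference of -0.03 from the peak. AT1G34380, a 5'-3' exonuclease family protein, ran from 75.8 and 86.5 at 0 h to 17.6 and 23.7 at 14 h. All its arrays from 12 to 14 h lay below the highest bacterial control, so its lowest level is not exact.

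Also named were AT1G19960, AT2G25730, AT5G54970 and AT2G36145. AT2G25730 was a late one, with 270.8 and 302.4 at 0 h, 185.1 and 116.8 at 12 h, then 54.1 and 49.0 at 16 h. AT2G36145 was an early one, with 130.0 and 146.4 at 12 h, 296.2 and 259.9 at 14 h, then 353.0 and 333.3 at 16 h, beside 324.2 and 431.8 at 0 h. AT5G54970 fell from 258.2 and 256.1 at 0 h to 64.0 and 83.6 at 12 h. AT1G19960 differed most between the series in its low hours, with 103.8 in series 1 and 691.0 in series 2 at 4 h. At 24 h it measured 1139.8 and 1575.1, and at 13 h 150.9 and 336.6.

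The probe sets 264262_at and 250433_at each match the same 5 genes, which RefSeq lists as histone H3.1, the form of H3 that is deposited when DNA is replicated. No single gene can be named from them. The first measured 365.8 and 436.1 at 0 h, 197.9 and 216.3 at 8 h, 75.0 and 112.2 at 12 h, 87.1 and 94.8 at 13 h, then 326.6 and 279.6 at 24 h. The second was at 122.1 and 110.9 at 0 h, 25.3 and 34.4 at 12 h, then 105.0 and 102.7 at 24 h. Its 13 h values, 28.1 and 26.5, lay below the highest bacterial control, so the depth of its trough is not exact. The rise was slow in both probe sets: at 20 h they stood at 208.9 and 214.4, and at 53.9 and 51.0. The array holds 3 more probe sets for these 5 genes, and they share sequence, so the 5 are not separate measurements. All 5 were lowest at 12 or 13 h in the mean of both series. For 257714_at, with a mean level of 42.4, the 13 h values of 23.5 and 18.8 also lay below the highest bacterial control. Of the 3 that are no members, 250434_at had its highest point at 0 and 24 h in both series but a range of 1.26 in series 2, and the others were highest at 1 or 4 h. By comparison, 3 probe sets for histone H3.3, the form deposited outside replication, had ranges of 0.48 to 0.82 in series 1 and 0.47 to 0.53 in series 2. This comparison was chosen after the values were seen.

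**Figure D4:**
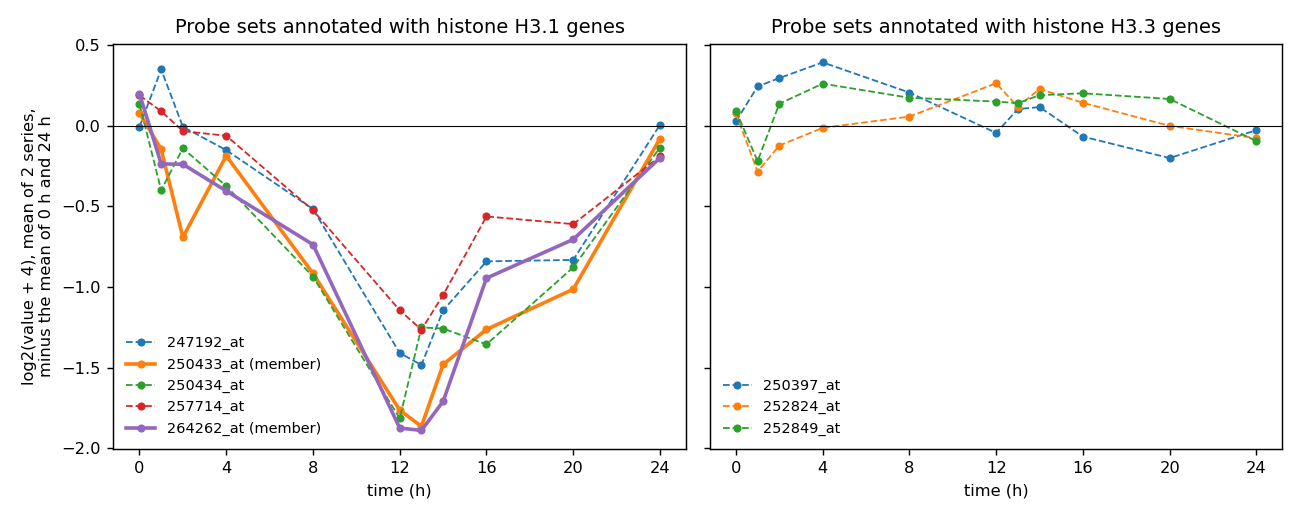
Mean of both series on the log2(value + 4) scale, minus the mean of 0 h and 24 h, for the 5 probe sets of histone H3.1 genes (left, members in bold) and 3 of histone H3.3 genes (right). The H3.1 probe sets drop by over 1 log2 unit around 12 and 13 h, and the H3.3 probe sets stay within 0.5 of 0.

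Among the probe sets without a gene name here, some fell from high intensities to below the highest bacterial control, so their swing has no exact size. The intensity of 267364_at was 277.2 and 766.5 at 0 h, 52.1 and 59.3 at 8 h, then 0.8 and 6.7 at 14 h. It came back to 218.1 and 538.3 at 20 h, then 382.4 and 928.1 at 24 h. For 249850_at the values were 1170.3 and 1228.4 at 0 h, 304.3 and 374.8 at 8 h, 18.5 and 18 at 14 h, 1002.1 and 962.3 at 20 h, then 1243.0 and 1302.4 at 24 h. Both were of the late kind, near background at 14 and 16 h and most of the way back 4 h later. The 14 h arrays did not overlap with any array before 12 h or after 16 h in either probe set.

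The other lists looked up held no member. None of the 4 named clock genes of 25 listed was one: GI and COR28 were highest at 20 h in both series, RVE6 at 13 h and COR27 at 1 h. The cold and abscisic acid list had 4 of 18 genes named, among them COR15A, highest at 20 h in series 1 and at 0 and 24 h in series 2. Starch synthesis (4 of 17 named), light harvesting (3 of 16), phenylpropanoid synthesis (1 of 14), darkness and low sugar (3 of 8) and shade and growth (2 of 9) had 0 members each. For nitrogen assimilation, the trehalose phosphate synthase family and heat shock no listed gene was named. With so few genes named, these counts say little of the pathways.

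Membership rested on a threshold in the range. Just inside stood AT5G54970, with ranges of 1.92 and 1.51, 266471_at (1.52 and 1.81) and 267157_at (1.52 and 1.66). Just outside stood 248380_at (1.49 and 1.63), 265837_at (2.84 and 1.49) and 249472_at (1.46 and 2.13). Without the condition on the range, 304 probe sets had their highest point at 0 and 24 h in both series. Chosen in series 1 alone, 130 probe sets would have been members, and in series 2, which that choice did not use, 70 of them (53.8%) had their highest point at 0 and 24 h. Among all 10482 probe sets the share in series 2 was 7.99%. Of the 130, 50 (38.5%) also passed the range, against 1.22% of all. Chosen in series 2 alone, 128 would have been members. In series 1, 64 of these (50%) had the same highest point, against 9.57% of all, and 50 (39.1%) passed both conditions, against 1.24% of all. In the other series 16 and 23 of the chosen probe sets were highest at 20 h and 17 and 20 at 1 h, the neighbouring hours. The correlation of the series over the 10 points of a member had a median of 0.929 (0.489 to 0.997), given as a description.

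Whether the level at the end of the sampled day matched that at its start was not used by the rule and could be tested. In limma with 1 mean per time point, 0 of the 50 members differed between 24 h and 0 h at an adjusted p under 0.05, and 0% of the 13648 probe sets tested did. At an unadjusted p under 0.05 the counts in this fit, which does not pair the arrays by series, were 0 members and 366 probe sets in all. The members' differences, 24 h minus 0 h, ran from -0.64 to 0.88 with a median of 0.03, the same as the median of 0.03 over all probe sets. The median SE was 0.28 (0.14 to 0.91). For 34 of the 50, the 95% interval of the difference lay within -1 to 1, that is, within a 2-fold difference, and for the other 16 it did not. With the replicate series as a block, which the pairing of the arrays allows, the median SE was 0.21. The interval then lay within these bounds for 41 members, and 0 were called. In limma with the block, 5 of the 50 members and 755 of the 13648 probe sets had an unadjusted p under 0.05. Both series were higher at 24 h for 18 members, both lower for 16, and 16 were mixed.

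The named members differed in how closely the 24 h level was bounded. AT5G49900 was measured most precisely, at 0.09 ± 0.14 (SE), with an interval from -0.21 to 0.39. PWD differed by 0.26 ± 0.22, with an interval from -0.21 to 0.72, and SCPL49 by -0.11 ± 0.20. The largest difference was that of AT1G16850, at 0.88 ± 0.51, higher at 24 h in both series. AT1G01300 stood at -0.42 ± 0.37 and SCPL35 at -0.39 ± 0.26. None of these passed the test (limma, n = 2 arrays per time point), with or without the block. With the block the interval of AT1G01300 was -0.72 to -0.11, and that of AT1G16850 -0.05 to 1.81, without adjustment over probe sets. The 24 h array of series 2 had an actin ratio of 9.72, against 3.16 in series 1 and 4.35 and 4.09 at 0 h, and without the 3 arrays of highest ratio the count was 0 as well. For comparison, the median difference was 0.16 over the 186 probe sets highest at 20 h and -0.09 over the 90 highest at 1 h, chosen by the same rule, and none of those was called.

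**Figure D5:**
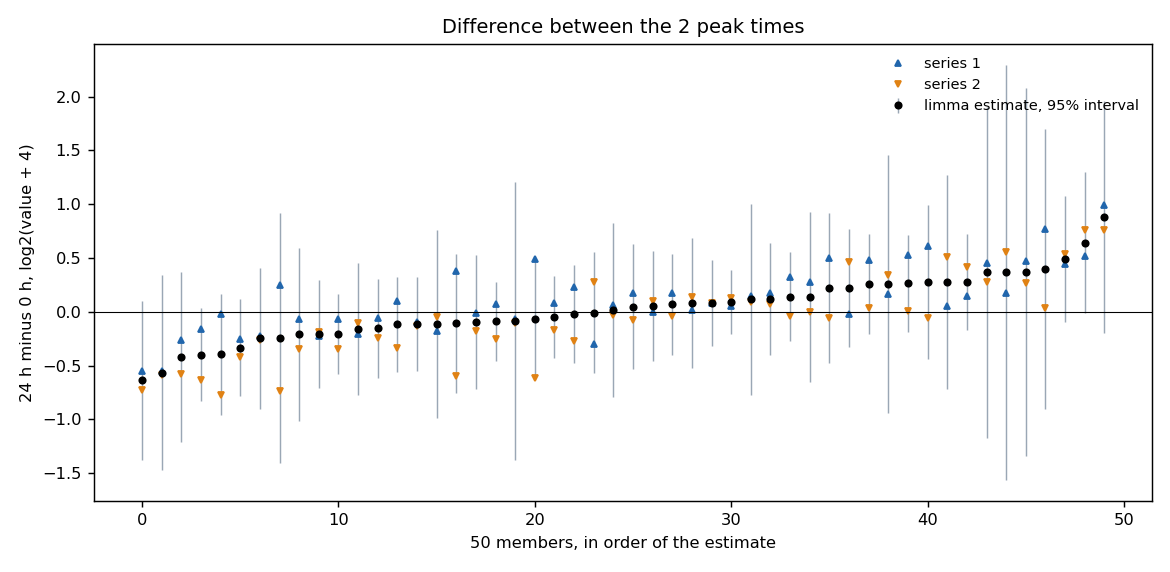
Difference between 24 h and 0 h on the log2(value + 4) scale for the 50 members, in order of the limma estimate (black, with its 95% interval), with triangles for each series. Every interval, from the fit without the block, includes 0, and the estimates run from -0.64 to 0.88.

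The mean level of a member in each series was not used by the rule either. With time point as a covariate, limma called 23 of the 50 members (46%) different between series 2 and series 1, against 35.8% of the 13648 probe sets. Higher in series 2 were 17 members (19.4% of all probe sets were called higher) and lower 6 (16.4% of all). The median difference was 0.03 over the members and 0.01 over all. The share of members called was thus somewhat above the background, with no test of that difference.

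The largest offset was that of AT1G68600, higher in series 2 by 1.37 ± 0.16 (SE, adjusted p = 3.23e-05, limma) and in 11 of 11 time points. AT1G19960 followed with 1.12 ± 0.19 (adjusted p = 0.000382), AT1G52770 with 0.73 ± 0.14 (adjusted p = 0.00099) and AT5G53420 with 0.66 ± 0.11 (adjusted p = 0.000317). AT1G01300 was higher by 0.56 ± 0.06 (adjusted p = 1.28e-05). In the mean of both series these 5 were lowest at 12 or 13 h, though AT1G19960 was lowest at 4 h in series 1. Also higher in series 2 were AT5G39410 (0.22 ± 0.07, adjusted p = 0.0165) and SCPL35 (0.26 ± 0.09, adjusted p = 0.0319), both lowest at 14 h. AT5G62720 was lower in series 2, with a difference of -0.85 ± 0.14 (adjusted p = 0.000321). Without the 3 arrays of highest actin ratio, 15 members were called (13 higher and 2 lower). Calls over all 13648 probe sets fell as well, from 4883 to 3260. Of these named genes, SCPL35 lost its call (adjusted p = 0.0959, limma) and the others kept theirs. The part of RNA quality in these offsets was not tested.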

How the data were processed

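Leaf RNA was measured on 22 one-colour Affymetrix ATH1 arrays. The deposited table holds 1 linear intensity per probe set and array, scaled by the authors. The 2% trimmed mean was 100 on every array. Not given in the sources used here is the array software. The number of arrays limits the precision.

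Values were transformed to log2(value + 4), which understates the change of low probe sets. Gene names came from the platform annotation, updated by RefSeq symbols. Of 22746 probe sets that are no controls, 13513 stand for 1 named gene. Hours and series came from source names and titles. Linear models were fitted with limma 3.58.1 (R 4.3.3, lmFit, then eBayes with a trend) to the 13648 probe sets (60%) with the highest mean. Tests were two-sided, with Benjamini-Hochberg adjustment, and calls were made at an adjusted p under 0.05. The fits were checked on simulated data with independent noise on each array. That check did not cover deviations shared by same-numbered arrays. Tables were made with Python 3.11.15, pandas 2.3.3 and numpy 2.4.6.

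The members and gene lists were chosen with earlier results of these data known. Named are members that stand for 1 gene: those of largest range or highest level, in a list, called in a test, at the range threshold, or highest and lowest at 1 and 20 h. Also named are up to 4 unnamed members by probe set ID apart from threshold neighbours, and histone H3 probe sets chosen after their values were seen. The carboxypeptidase-like family was likewise counted after its values were seen. Same-numbered arrays deviated together from their time point means (correlation 0.135 to 0.633, median 0.403, over 55 pairs of time points), and the pairing comes from the replicate numbers of the labels. Alternatives were other pseudocounts, filters, thresholds and scalings, the replicate block, other hours and left-out arrays. A planned count of promoter motifs was not run, since no sequences were used here. The values of 1 further member that this naming rule takes are not reported here.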

Additional observations from a re-analysis of the deposited data

How the results depend on the processing

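The rule found 50 members. A pseudocount of 40 left 31, 30 of them among the 50, a range of at least 1 gave 108, and one of at least 2 gave 23. Leaving out each array in turn gave 43 to 71, with the highest count without the 20 h array of series 1 and the lowest number of shared members, 33, without the 0 h array of series 2. With 0 h alone as the peak, 36 of the 50 remained members, with 24 h alone 32, and under both 20. Equal array medians kept 36 and quantile normalization 47. With the replicate block, 24 h against 0 h gave 0 calls among members and among all probe sets, with 5 members and 755 probe sets at an unadjusted p under 0.05 (limma). All other alternatives for that comparison also gave 0 calls at an adjusted p under 0.05. Without the 3 arrays of highest actin ratio, an alternative chosen after seeing the data, 15 members were called between the series, against 23. Calls over all 13648 probe sets then fell from 4883 to 3260. Other scalings, pseudocounts and filters, and the fit without the 0 and 24 h arrays, gave 19 to 23 members. SCPL35 lost its call between the series under quantile normalization and without the arrays of 0 and 24 h (adjusted p = 0.0536 and 0.0619, limma), and AT5G39410 without the latter (adjusted p = 0.0625, limma). The median at 12 h was -1.55 with a pseudocount of 40. The cause of these shifts was not tested. Signals at or below 29.2 cannot be told from background.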
